A study of Mus musculus with 8 samples.

Results

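The 43 genes described here act in DNA repair, the Fanconi anaemia pathway and the checkpoint that senses damaged DNA. They were taken by symbol from the microarrays, with 1 probe per gene, the brightest of its probes by mean log2 signal over the 8 arrays. They are 43 of the 36161 named features on the array design. The listed genes comprise 16 of homologous recombination, 10 of the Fanconi pathway, 6 of the damage checkpoint, 5 of non-homologous end joining, 3 of mismatch repair and 3 of base excision repair. Each gene was counted in 1 class only, Exo1 in recombination, also where its product acts in more than 1 pathway. Testing required a probe signal well above background on 4 or more arrays of the 8, and 41 of the 43 genes met this rule. Brca1 and Xrcc5 did not.

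The cells were plasmacytoid dendritic cells (pDC), the interferon-producing dendritic cell type, grown from bone marrow precursors of female BALB/c mice with mouse Flt3 ligand (mFlt3-L), the cytokine that drives dendritic cell development in culture. They were sorted by the surface antigen Sca-1 into a Sca-1- group of 4 samples and a Sca-1+ group of 4 samples, with no other treatment or genotype in the labels. PolyA RNA was amplified and hybridised to single-colour Agilent arrays. The labels do not say that the replicates of a group came from separate cultures or animals, so the p-values cover only the variation among these samples, and that may be technical. Every Sca-1- sample lay at the first array position of its slide and every Sca-1+ sample at the second, so position and group cannot be told apart.

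Homologous recombination repairs double-strand breaks by copying the sister chromatid, and it therefore works mainly in cells that are replicating or have replicated their DNA. The Fanconi pathway detects interstrand crosslinks at replication forks and hands the broken ends to the recombination machinery. Non-homologous end joining ligates broken ends directly and works through the whole cell cycle, and in lymphoid cells it also completes antigen receptor rearrangement. Mismatch repair corrects replication errors, and base excision repair removes damaged bases.

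On the arrays, 45.9% to 54.9% of probes were well above background and no spot was saturated. All 15 genes of a pDC marker list were detected on all 8 arrays. Of these, 0 were called in the unpaired limma fit (4 at an unadjusted p under 0.05), and with slide as a block Irf7, Tlr7, Ccr9 and Lag3 were called higher in Sca-1+ cells. In a list of 10 conventional dendritic cell markers, 8 were detected on all arrays and 0 were called unpaired. With the block Zbtb46 was called lower and Sirpa higher, and the part of such cells in the repair differences was not tested. Of other cell types, 4 of 10 B cell, 4 of 11 T and NK cell, 3 of 9 erythroid, 9 of 13 neutrophil and monocyte and 3 of 7 basophil and mast cell markers were detected on all arrays. In the same B, T and NK, erythroid and basophil lists 4, 5, 4 and 1 markers were well above background on 0 arrays, among them Pax5, Cd3d and Hbb-b1. None of these 5 lists had a gene called in the unpaired fit, where 1.71% of all tested features were called. With slide as a block 2 neutrophil and monocyte markers were called lower in Sca-1+ cells, and none in the rest of these lists. The summed level of the B cell list (linear, relative to the 75th percentile) was 117.7 to 162 in Sca-1- and 162.4 to 185.8 in Sca-1+ samples, and the sums of the other 4 lists overlapped; their part in the repair differences was not tested. Ly6a, which encodes Sca-1, was higher in Sca-1+ cells by 4.65 ± 0.24 (SE, log2), or 25.1-fold (limma adjusted p = 0.000626). Levels below are log2 signals relative to the 75th percentile of the same array, so that 0 is a probe at that percentile. Where 4 levels are given for a group, they are those of replicates 1, 2, 3 and 4 in that order. Differences are Sca-1+ minus Sca-1- means with the standard error of the limma fit (n = 4 per group unless stated), and a call is an adjusted p under 0.05 over all 19834 tested features. In these sorted populations, fewer cells carrying a transcript and less transcript per cell cannot be told apart.

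In Sca-1+ pDC, 7 of 15 tested genes of homologous recombination and 2 of 10 of the Fanconi pathway were called lower, and 0 of 7 genes of end joining and mismatch repair were called in either direction by limma. As 1.71% of all tested features were called in either direction, 0 of 7 does not set these genes apart from other features. Of the 41 tested genes, 11 were called lower in Sca-1+ cells and 0 higher, where 1.58% of all tested features were called lower and 0.126% higher. The 11 were Exo1, Rad51ap1, Rad54b, Rad54l, Bard1, Blm and Brca2 of homologous recombination, Fanci and Fanca of the Fanconi pathway, Clspn of the checkpoint and Neil3 of base excision repair. A further 9 genes had an unadjusted p under 0.05, giving 20 of 41 in all, where 8.97% of all tested features had one. The filter admits probes that are bright in a single group; among the 34 genes well above background on all 8 arrays, 10 were called lower. With slide as a block, a paired fit since same-numbered samples share a slide, 17 of the 41 genes were called lower and 0 higher, against 4.12% and 2.1% of all tested features.

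**Figure D1:**
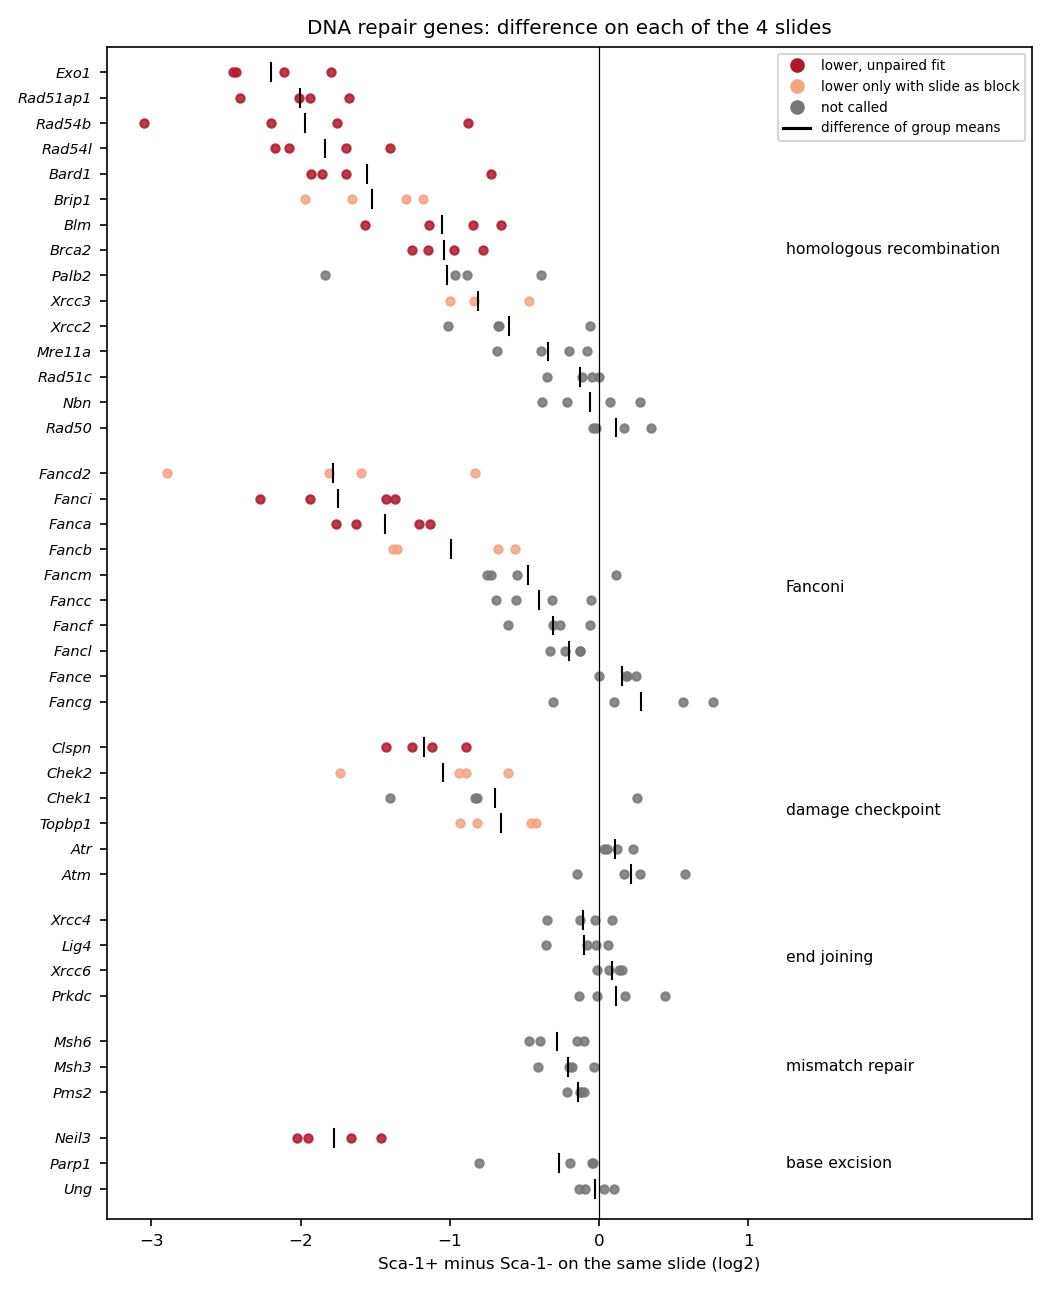
Sca-1+ minus Sca-1- difference (log2, horizontal axis) on each of the 4 slides for the 41 tested genes, ordered by class; points are slides, the black bar is the difference of the group means, and colour marks the call. To the left of 0 on every slide that measured them lie 28 of the 41 genes, while the end joining genes lie around 0. The 28 include the 11 genes called lower, which were called on these same arrays, and all 3 mismatch repair genes.

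Exo1, Rad51ap1 and Rad54l were called lower with the smallest adjusted p of the recombination genes. Exo1 encodes a nuclease that resects DNA ends to single strands, a step that commits a break to recombination (probe chr1:177838682-177838741, mm9). Its level was 0.71, 0.56, -0.08 and 0.26 in the Sca-1- group and -1.74, -1.55, -2.52 and -1.54 in the Sca-1+ group. The groups did not overlap, and Exo1 was lower in Sca-1+ cells (difference -2.20 ± 0.27 SE, 4.58-fold lower, adjusted p = 0.00623). Rad51ap1 encodes a protein that promotes invasion of the sister duplex (chr6:126873482-126873541, mm9). Its level was 2.84, 2.57, 2.21 and 2.01 in the Sca-1- group and 0.43, 0.63, 0.20 and 0.33 in the Sca-1+ group. Every Sca-1+ sample was below every Sca-1- sample (difference -2.01 ± 0.20 SE, 4.02-fold lower, adjusted p = 0.00504). Rad54l encodes a motor protein that works during strand invasion (chr4:115769618-115769677, mm9). The Rad54l level was 0.62, 0.33, 0.09 and -0.37 in the Sca-1- group and -1.55, -1.75, -1.61 and -1.77 in the Sca-1+ group. The Sca-1+ samples lay within a narrow range under all Sca-1- samples (difference -1.84 ± 0.21 SE, 3.57-fold lower, adjusted p = 0.00526). These 3 calls held when any single array was left out.

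**Figure D2:**
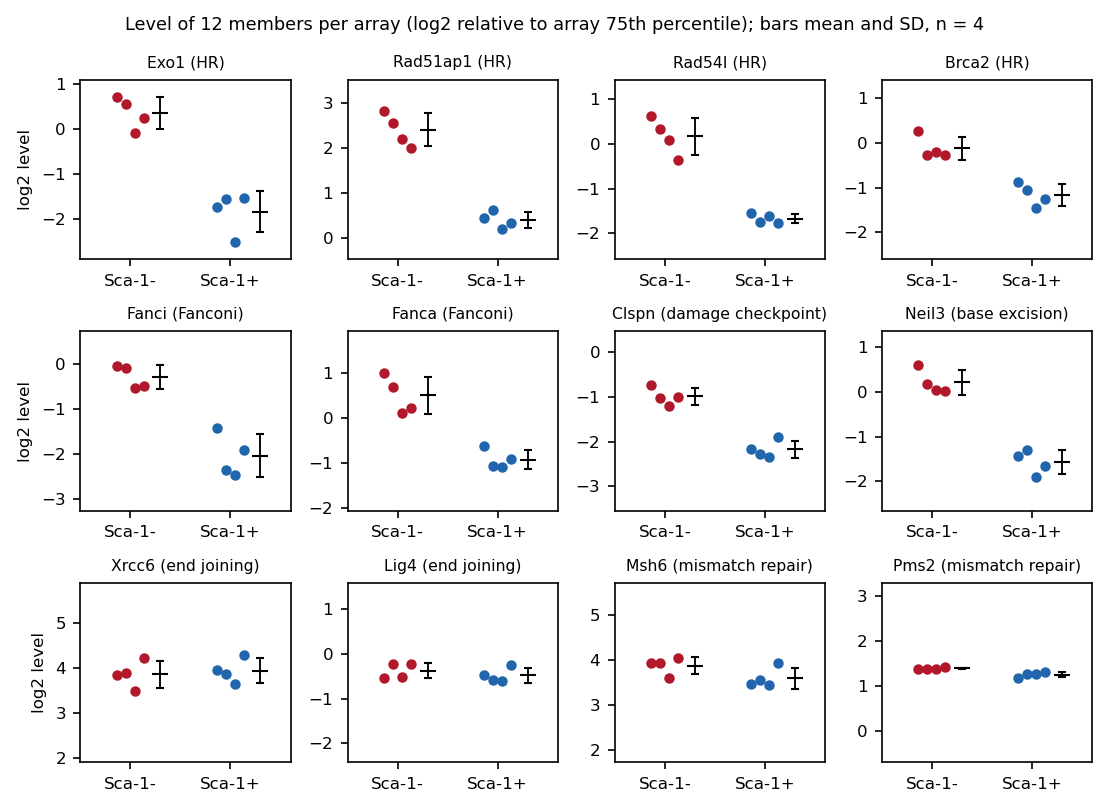
Level of 12 genes in each sample (log2 relative to the array's 75th percentile, vertical axis, the same span in every panel); points are samples in the order of replicates 1 to 4, and the bars show mean and SD (n = 4 per group). The recombination, Fanconi and checkpoint panels and that of Neil3 show only genes called lower, and there the groups are separate. The groups are also separate for Pms2, which was not called, and they overlap for Xrcc6, Lig4 and Msh6.

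Genes of the BRCA group, which prepare resected ends for strand invasion, and the helicase gene Blm gave smaller differences with the same sign. Bard1 encodes the obligate partner of BRCA1 in a ubiquitin ligase (chr1:71074294-71074353, mm9). The Bard1 level was 1.71, 1.37, 1.30 and 1.11 in the Sca-1- group and -0.15, -0.33, -0.63 and 0.38 in the Sca-1+ group. Sca-1+ replicate 4 was the highest of its group, still under all Sca-1- samples (difference -1.55 ± 0.23 SE, 2.94-fold lower, adjusted p = 0.0133). Brca2 encodes a mediator of strand invasion that acts on resected DNA (chr5:151372225-151372284, mm9), and its level was 0.26, -0.27, -0.21 and -0.28 in the Sca-1- group and -0.89, -1.05, -1.46 and -1.26 in the Sca-1+ group. The groups did not overlap, and Sca-1- replicate 1 stood above the other 3 of its group (difference -1.04 ± 0.18 SE, 2.05-fold lower, adjusted p = 0.0316). Blm encodes the helicase that dissolves crossed recombination intermediates (chr7:87600243-87600302, mm9). The Blm level was 0.77, 0.57, 0.32 and 0.25 in the Sca-1- group and -0.80, -0.28, -0.82 and -0.41 in the Sca-1+ group. All Sca-1+ samples were lower (difference -1.05 ± 0.19 SE, 2.08-fold lower, adjusted p = 0.0303). Single arrays ended these calls when left out. Bard1 missed the threshold without Sca-1- replicate 1, 2 or 3 or Sca-1+ replicate 2 (largest adjusted p 0.0575). Blm missed it without Sca-1- replicate 1, 2 or 3 or Sca-1+ replicate 1 or 3 (largest 0.117). Brca2 kept its call only without Sca-1- replicate 4 or Sca-1+ replicate 1 (largest 0.111).

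Rad54b, a paralog of Rad54l, had levels of -0.36, -0.66, -0.78 and -1.09 in the Sca-1- group and -2.56, -2.42, -3.83 and -1.97 in the Sca-1+ group. It was lower in Sca-1+ cells (difference -1.97 ± 0.38 SE, 3.92-fold lower, adjusted p = 0.0429), but 1 of its 4 Sca-1+ arrays was not well above background. Its call ended without Sca-1- replicate 1, 2 or 3 or Sca-1+ replicate 1 or 2 (largest adjusted p 0.166). Brip1, a helicase that binds BRCA1, differed by -1.52 and was not called unpaired (adjusted p = 0.260); Sca-1+ replicate 4 was far under the rest of its group. With slide as a block, Brip1 was called lower (adjusted p = 0.00563). Xrcc3, a recombination factor, differed by -0.81 over 7 arrays, because the spot of Sca-1- replicate 2 was an outlier and was dropped, and it too was called only with the block (adjusted p = 0.147 unpaired and 0.0486 blocked). Palb2, which bridges BRCA1 and BRCA2, differed by -1.02 with adjusted p = 0.525, and only 1 of its Sca-1+ arrays was well above background. Brca1 could not be compared: its probe was well above background on 1 Sca-1- array and 0 Sca-1+ arrays. That probe is shown because the absence of a Brca1 value rests on these 60 bases alone, which span an intron (mm9, minus strand, chr11:101359283-101363319):
Brca1: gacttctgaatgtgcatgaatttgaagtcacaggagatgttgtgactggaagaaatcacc

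The break sensing genes of the same pathway were not called. Mre11a, Rad50 and Nbn encode the complex that binds broken ends and serves recombination, end joining and ATM activation alike. The Rad50 level was 2.74, 2.96, 3.44 and 3.58 in the Sca-1- group and 3.09, 3.12, 3.40 and 3.56 in the Sca-1+ group, and the groups overlapped throughout (difference 0.11 ± 0.22 SE, adjusted p = 0.9998). Mre11a and Nbn differed by -0.34 and -0.06, and neither was called unpaired or blocked. Rad51c, a recombination factor, differed by -0.13 (adjusted p = 0.9998), with replicate 4 of both groups under the other replicates. Xrcc2, a further recombination factor, differed by -0.61 (adjusted p = 0.996). In all, 7 of the 15 tested recombination genes were called lower, 14 had a negative difference, in 9 the groups did not overlap, and the median difference was -1.04. Groups that did not overlap were found for 5.04% of all tested features in the lower and 1.91% in the higher direction, and 44.6% had a negative difference, with a median over all features of 0.03.

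In the Fanconi pathway, 1 gene of the clamp that marks a crosslink and 1 of the core complex were called lower. FANCI and FANCD2 form the clamp that is ubiquitinated at a crosslink. The Fanci level was -0.05, -0.08, -0.54 and -0.48 in the Sca-1- group and -1.42, -2.35, -2.48 and -1.91 in the Sca-1+ group (chr7:86595076-86595135, mm9). The groups were clearly apart (difference -1.75 ± 0.25 SE, 3.37-fold lower, adjusted p = 0.0115). The Fancd2 level was -2.53, -2.82, -2.94 and -2.40 in the Sca-1- group and -5.42, -4.41, -4.75 and -3.23 in the Sca-1+ group (chr6:113541170-113541229, mm9). Each Sca-1+ sample was under each Sca-1- sample, but only 1 Sca-1+ array was well above background, and the difference of -1.78 was not called unpaired (adjusted p = 0.0994) and was called with the block (0.0370).

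Fanca and Fancb encode subunits of the core ubiquitin ligase complex. The Fanca level was 1.002, 0.70, 0.12 and 0.22 in the Sca-1- group and -0.63, -1.06, -1.09 and -0.91 in the Sca-1+ group (chr8:125792210-125792269, mm9). All Sca-1+ samples were below 0 and all Sca-1- samples above it (difference -1.43 ± 0.22 SE, 2.70-fold lower, adjusted p = 0.0155). The Fancb level was -0.68, -0.72, -1.19 and -0.64 in the Sca-1- group and -2.06, -2.07, -1.75 and -1.32 in the Sca-1+ group, and the groups did not overlap. Its difference of -0.995 missed the threshold unpaired (adjusted p = 0.0698) and passed with the block (adjusted p = 0.0345). FANCM is the translocase that anchors the core complex to DNA; the Fancm level was -1.54, -1.87, -1.33 and -1.60 in the Sca-1- group and -2.09, -1.76, -2.08 and -2.32 in the Sca-1+ group. Sca-1+ replicate 2 lay inside the Sca-1- range, and Fancm was not called (difference -0.48 ± 0.17 SE, adjusted p = 0.374). The call of Fanca ended without Sca-1- replicate 2 or Sca-1+ replicate 2 or 3 (largest adjusted p 0.0704), and that of Fanci without Sca-1- replicate 1 or 2 (largest 0.0546). Leaving out Sca-1+ replicate 4 brought Fancb and Fancd2 past the threshold (adjusted p = 0.0249 and 0.0116).

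The other core genes Fancc, Fancf, Fancl, Fance and Fancg were not called in either fit, with differences from -0.41 for Fancc to 0.28 for Fancg. Fancl encodes the ligase subunit that transfers the ubiquitin, and its 4 Sca-1+ levels, 1.99 to 2.24, lay just under the Sca-1- levels of 2.26 to 2.37. The Fancg ranges of the groups overlapped, and its difference turned negative without Sca-1+ replicate 4 (-0.11). Of the 10 Fanconi genes, 2 were called lower (4 with the block), 0 higher, 8 had a negative difference, and the median was -0.44.

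Among checkpoint genes, the adaptor of the replication stress branch was called lower and the kinases were not. Clspn encodes claspin, which presents CHK1 to the kinase ATR at stalled forks (chr4:126270723-126270782, mm9). The Clspn level was -0.73, -1.02, -1.22 and -1.01 in the Sca-1- group and -2.16, -2.28, -2.34 and -1.90 in the Sca-1+ group. Both groups were tight and separate (difference -1.17 ± 0.16 SE, 2.26-fold lower, adjusted p = 0.00818), and the call held when any single array was left out. With normexp background correction the Clspn difference was -0.63 and the call ended (adjusted p = 0.0687). Chek2 encodes the effector kinase of the ATM branch; its level was -1.74, -2.29, -1.87 and -1.75 in the Sca-1- group and -3.48, -3.19, -2.81 and -2.36 in the Sca-1+ group. Its groups did not overlap, and its difference of -1.04 was called only with the block (adjusted p = 0.119 unpaired and 0.0388 blocked); without Sca-1+ replicate 4 it passed unpaired (adjusted p = 0.0338). Topbp1 encodes the activator of ATR. The Topbp1 level was 1.19, 0.79, 0.77 and 1.77 in the Sca-1- group and 0.25, -0.03, 0.31 and 1.34 in the Sca-1+ group. Replicate 4 was the highest in both groups, and the groups overlapped. The Topbp1 difference of -0.66 had an adjusted p of 0.694 unpaired and 0.0357 with the block. Chek1, with 1 Sca-1+ array well above background, differed by -0.70 and was not called (adjusted p = 0.769). The kinases Atm and Atr differed by 0.22 and 0.11, and neither was called.

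End joining genes gave no call in the unpaired fit or with the block. Xrcc6 encodes Ku70, which with Ku80 caps a broken end (chr15:81870452-81870511, mm9). The Xrcc6 level was 3.84, 3.88, 3.50 and 4.24 in the Sca-1- group and 3.97, 3.87, 3.66 and 4.30 in the Sca-1+ group. The groups covered the same range, with a difference of 0.08 and a 95% interval of -0.37 to 0.54. Prkdc encodes the catalytic subunit of DNA-PK, the kinase that Ku recruits. The Prkdc level was 0.56, 0.21, 0.29 and 1.29 in the Sca-1- group and 0.43, 0.65, 0.27 and 1.46 in the Sca-1+ group. Replicate 4 was highest in both groups, and the difference was 0.11 with an interval of -0.62 to 0.85. XRCC4 and ligase IV seal the joined ends. The Xrcc4 level was 0.35, 0.33, 0.51 and 0.67 in the Sca-1- group and 0.44, 0.30, 0.16 and 0.54 in the Sca-1+ group, a difference of -0.11 (interval -0.43 to 0.22). The Lig4 level was -0.54, -0.23, -0.52 and -0.22 in the Sca-1- group and -0.48, -0.59, -0.60 and -0.25 in the Sca-1+ group, a difference of -0.10 (interval -0.43 to 0.23). The intervals of these 4 genes leave out a fall of the size seen in Exo1 or Rad51ap1, but they do not show equal levels, and that of Prkdc is the widest. Xrcc5, which encodes Ku80, gave no value, since its probe was well above background on 0 of the 8 arrays. Its probe, shown for the same reason as that of Brca1, also spans an intron (mm9, plus strand, chr1:72430014-72430320):
Xrcc5: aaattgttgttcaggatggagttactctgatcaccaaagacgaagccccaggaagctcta

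Mismatch repair genes had small negative differences and no call. All 3 were lower in the Sca-1+ sample on every slide, where this held for 17.8% of all tested features. MSH6 and MSH3 each form a dimer that recognises mismatches or small loops, and PMS2 cuts the strand to be repaired. The Msh6 level was 3.93, 3.95, 3.59 and 4.04 in the Sca-1- group and 3.46, 3.55, 3.44 and 3.94 in the Sca-1+ group. Its groups overlapped, with a difference of -0.28 (interval -0.66 to 0.10, limma adjusted p = 0.789). The Msh3 level was 2.79, 2.46, 2.55 and 2.62 in the Sca-1- group and 2.38, 2.28, 2.35 and 2.59 in the Sca-1+ group, a difference of -0.21 (interval -0.51 to 0.09, adjusted p = 0.837). The Pms2 level was 1.39, 1.39, 1.38 and 1.42 in the Sca-1- group and 1.17, 1.26, 1.26 and 1.31 in the Sca-1+ group. Here the Sca-1+ samples were all below the Sca-1- samples, with a difference of -0.14 (interval -0.39 to 0.10, adjusted p = 0.919).

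Among base excision genes Neil3 was called lower, and the other two were not called. Neil3 encodes a glycosylase that acts on single-stranded DNA and also unhooks certain crosslinks at forks (chr8:54672466-54672525, mm9). The Neil3 level was 0.60, 0.18, 0.04 and 0.01 in the Sca-1- group and -1.43, -1.29, -1.91 and -1.65 in the Sca-1+ group. The groups were widely apart (difference -1.78 ± 0.19 SE, 3.43-fold lower, adjusted p = 0.00504), and the call held in every single-array omission. Ung, the uracil glycosylase used in antibody diversification, had levels of 6.80, 7.08, 7.06 and 6.67 in the Sca-1- group and 6.90, 7.11, 6.93 and 6.57 in the Sca-1+ group. The groups overlapped, with a difference of -0.02 (interval -0.40 to 0.35) whose sign depended on the scaling, at 0.0099 with quantile normalization. Parp1, which signals strand breaks, had levels of 1.85, 1.38, 1.68 and 2.67 in the Sca-1- group and 1.05, 1.34, 1.48 and 2.63 in the Sca-1+ group, with replicate 4 highest in both groups, and a difference of -0.27 (interval -1.16 to 0.62).

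Set side by side, 9 of the 25 tested recombination and Fanconi genes were called lower and 0 higher, with 22 negative differences and a median of -0.995. Of the 7 tested end joining and mismatch genes, 0 were called by limma in either direction, 0 had an unadjusted p under 0.05, 5 had a negative difference and the median was -0.11. Over all tested features, 1.71% were called and 8.97% had such an unadjusted p, so 0 of 7 is near the share over all features. On slides 1 to 4 the median difference was -1.15, -0.81, -0.96 and -0.68 for the first set and -0.14, -0.13, -0.12 and -0.03 for the second. Slide 4, scanned on another day with another protocol, thus gave the smallest median of both sets. The medians of the sets are descriptions, and the difference between the sets was not tested. Of the 41 tested genes, 28 were lower in the Sca-1+ sample on every slide that measured them, where this held for 17.8% of all tested features. Among the 28 were 20 of the 25 recombination and Fanconi genes, all 3 mismatch repair genes and 0 of the 4 end joining genes. The second set was thus not uniform, with a median of -0.01 for end joining and -0.21 for mismatch repair.

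**Figure D3:**
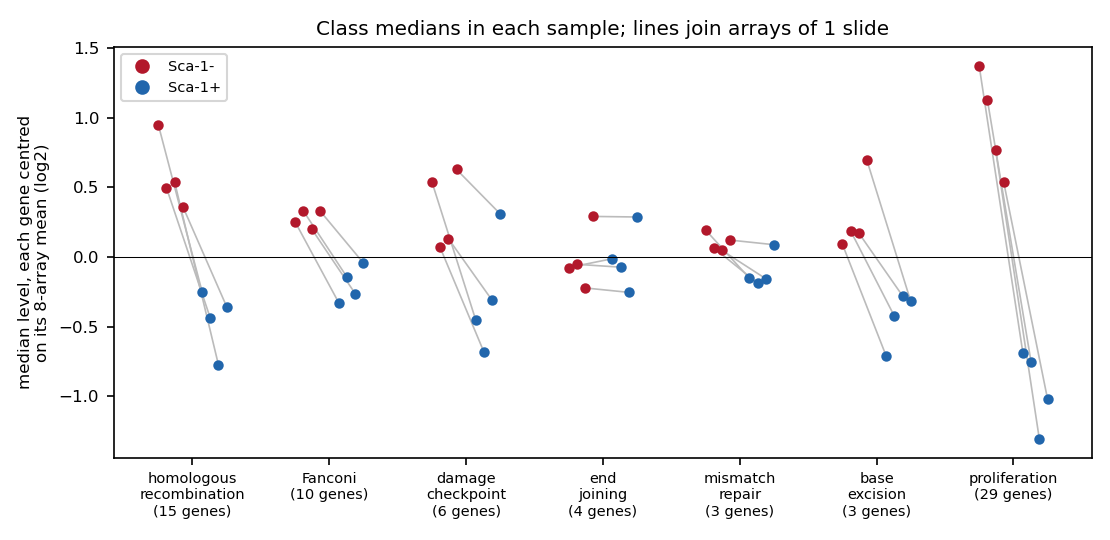
Median level of each class in each sample after centring every gene on its mean over the 8 arrays (log2, vertical axis); lines join the 2 arrays of a slide. The median of recombination genes is lower in the Sca-1+ sample on all 4 slides. The same holds for the Fanconi, checkpoint, mismatch repair, base excision and proliferation medians. That of end joining genes runs from -0.22 to 0.29 in Sca-1- and from -0.25 to 0.29 in Sca-1+ samples.

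Leaving out single arrays changed the number of genes called. It was 6, 5 and 7 of 41 without Sca-1- replicates 1, 2 and 3, and 7 without Sca-1+ replicate 2. Among these, the recombination and Fanconi genes numbered 4, 3, 5 and 5. Both samples of replicate 1, 2 or 3 left out together gave 0, 0 and 1 gene called lower, and both samples of replicate 4 left out gave 15. Over these paired omissions the calls among all tested features ranged from 1 to 882, so calls changed over the whole array as well. The median of recombination and Fanconi genes stayed between -1.07 and -0.79 in the single-array omissions, and that of end joining and mismatch genes between -0.17 and -0.05. Normexp background correction brought the first median to -0.34 and also ended the call of Brca2 (adjusted p = 0.101). Testing dim probes too ended the calls of Blm, Brca2, Fanca and Rad54b. Averaging a gene's probes ended those of Fanca and Rad54b, and quantile normalization and the series value table that of Rad54b.

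In a wider list of 114 other repair genes, calls lay mainly in recombination, the Fanconi pathway and damage signalling. Of the 111 tested, 14 were called lower and 0 higher (26 and 2 with the block), with a median difference of -0.09. Over all tested features, 1.58% were called lower and 0.126% higher (4.12% and 2.1% with the block). The 2 calls higher with the block are thus near the share over all features. Fignl1, an ATPase of homologous recombination, fell by 2.23 (log2), and Timeless, a fork protection factor, by 1.27 (limma adjusted p = 0.00664 and 0.00977). Uhrf1, a chromatin protein best known for maintaining DNA methylation and also a crosslink sensor, fell by 2.11 (adjusted p = 0.00504). By pathway, 6 of 26 other recombination genes, 2 of 5 other Fanconi genes and 4 of 21 other damage signalling genes were called lower.

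End joining and mismatch repair each had 1 called gene in the wider list. Polq, the polymerase of the alternative, microhomology-guided joining route, fell by 1.77 (adjusted p = 0.00568), and was the 1 called gene of 7 other end joining genes. Lig1, the ligase that seals replicated strands and completes mismatch repair, fell by 1.30 (adjusted p = 0.00812), and was the 1 of 5 other mismatch genes. The end joining genes Dclre1c and Nhej1 differed by 0.28 and -0.40, and neither was called. None of 17 other base excision, 18 nucleotide excision and 12 lesion bypass or direct reversal genes was called in the unpaired fit. As 1.71% of all tested features were called, this does not set these genes apart from other features. With the block Apex1, Mbd4 and Fen1 of base excision and Rad18 and Polh of lesion bypass were called lower, and Mgmt of direct reversal higher. Fan1, of the other Fanconi genes, was also called higher with the block (difference 0.70).

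**Figure D4:**
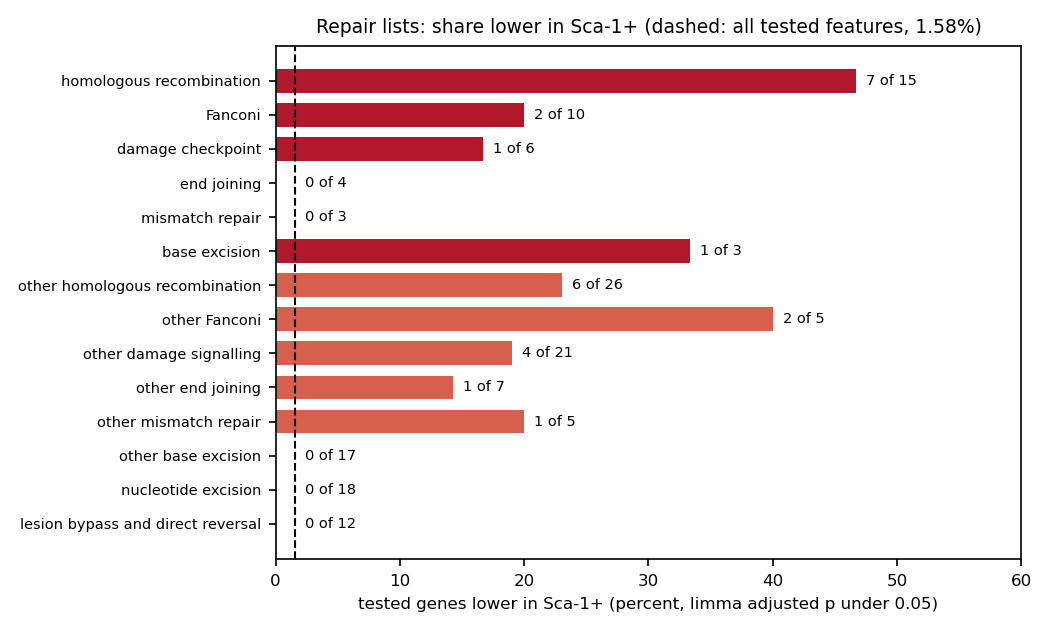
Percent of tested genes called lower in Sca-1+ cells (horizontal axis, limma adjusted p under 0.05) in each class of the 43 genes (dark bars) and of the wider repair list (lighter bars); the dashed line is the 1.58% of all tested features. Bars are longest for recombination at 7 of 15 and absent for end joining and mismatch repair at 0 of 4 and 0 of 3, classes in which 1 gene would make a long bar.

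Genes of cell division were also lower in Sca-1+ cells. In a list of 29 proliferation genes, 25 were called lower in Sca-1+ cells and 0 higher, with a median of -2.02, and Mcm2, Cdc45, Pcna and Tyms were not called. With slide as a block 28 were called lower, all but Tyms. Of all tested features, 1.58% were called lower unpaired and 4.12% with the block. Mki67, a marker of cycling cells, fell by 2.02 ± 0.27 (SE; adjusted p = 0.00812), from levels between 4.68 and 5.69 to levels between 2.89 and 3.59. On slides 1 to 4 the proliferation median was -2.10, -1.97, -2.13 and -1.66, wider than the recombination median on each slide. In a list of 16 p53 target genes, 0 were called by limma unpaired (2 at an unadjusted p under 0.05) and the median was 0.02. Over all tested features 1.71% were called and 8.97% had such an unadjusted p, so 0 of 16 is near the share over all features. With the block Phlda3 was called lower (-0.95) and Btg2 higher (0.56). Of a list of 10 stem and progenitor genes, Cd93 and Sox4 fell by 1.98 and 1.19, and its summed level (linear, relative to the 75th percentile) ranged from 55.2 to 91.5 in Sca-1- and from 41.5 to 75.3 in Sca-1+ samples. The part of proliferation or of progenitor cells in the repair differences was not tested.

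For some genes a second probe gave another value. Bard1 had 3 probes, and the other two differed by -1.84 and -0.12. The other Rad54b probe differed by -1.10, and the other Palb2 probe by -0.14. The second Fanca probe was not well above background and differed by -0.33, so the Fanca call rests on its brightest probe. The other Msh3 probes differed by -0.08 and -0.12 and the other Pms2 probe by 0.04, near 0 as for the probes used.

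The promoters of the genes were searched for 3 words tied to cell cycle transcription: the E2F words TTTGGCGC, TTTCCCGC, TTTCGCGC and TTTGCCGC, the CHR word TTTGAA and the CCAAT word, all on both strands, in the RefSeq window from 250 bases before to 50 after the gene start (GRCm38.p6). Windows were given for 36 of the 43 genes. An E2F word lay in 27.8% of these (10 of 36) and in 2.26% of all promoters, 4.5% of those of tested features and 16.4% of those of features called lower. It was in 3 of the 9 windows of called genes and in 7 of the 25 of genes not called. It was in 20% of recombination and Fanconi windows (4 of 20) and in 42.9% of end joining and mismatch windows (3 of 7). The CHR word was in 1 window, that of Bard1 (2.78%), against 14.5% of the windows of tested features and 39.2% of those called lower. The CCAAT word was in 58.3%, against 43% of the windows of tested features and 63.5% of those called lower. A match describes letters only, and no match says only that these letters are not in this window.

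The stretches below carry an E2F word, in capitals, ahead of the gene start. They are shown because they put genes of both sets, and checkpoint genes, next to each other. Bard1 and Brca2 were called lower, Chek2 and Topbp1 only with the block, and Xrcc6, Msh3 and Fancg were not called. They lie at chr1:71103148-71103207, chr5:150522427-150522486, chr5:110839805-110839864, chr9:103305172-103305231, chr15:82016297-82016356, chr13:92355170-92355229 and chr4:43010320-43010379 in that order, with Bard1, Msh3 and Fancg on the minus strand. Each is 5′ to 3′ on its gene's strand:
Bard1: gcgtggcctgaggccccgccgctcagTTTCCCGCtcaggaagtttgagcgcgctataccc
Brca2: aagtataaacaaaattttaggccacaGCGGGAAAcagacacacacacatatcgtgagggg
Chek2: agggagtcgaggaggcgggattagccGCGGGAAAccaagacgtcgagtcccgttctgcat
Topbp1: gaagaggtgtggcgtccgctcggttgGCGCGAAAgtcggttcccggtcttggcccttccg
Xrcc6: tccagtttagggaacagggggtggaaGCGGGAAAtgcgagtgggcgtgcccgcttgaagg
Msh3: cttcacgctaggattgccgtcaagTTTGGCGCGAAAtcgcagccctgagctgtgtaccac
Fancg: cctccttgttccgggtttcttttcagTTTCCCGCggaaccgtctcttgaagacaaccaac
The Msh3 stretch holds overlapping words on both strands, and Xrcc6 holds the same GCGGGAAA as Brca2 and Chek2. The differences of Brca2, Chek2 and Xrcc6 were -1.04, -1.04 and 0.08, and a part of the words in them was not tested.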

How the data were processed

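Each of the 8 samples was hybridised to 1 Agilent array. The authors deposited Feature Extraction 10.7.3.1 output, whose processed signal is an intensity that is already background-subtracted, per the file headers. The deposited series value table holds values on a log2 scale with the median of each column near 3.90; its centring was not stated, and it served as an alternative only.

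Control spots and outlier spots were left out, spots of a probe averaged, log2 taken and each array's 75th percentile subtracted. In R 4.3.3, limma 3.58.1 tested the differences (linear fit with moderated variances, unpaired, Benjamini-Hochberg over 19834 features, threshold 0.05). Probes had to be well above background on at least 4 of 8 arrays. The number of arrays limits the precision. The script was tested on simulated data.

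Replicate numbers coincide with slides per the file headers, so slide was also fitted as a block. Deviations of same-numbered samples correlated by 0.44, 0.43, 0.64 and 0.89. Those of Sca-1- replicate 2 and Sca-1+ replicate 1 correlated by 0.54, and pairs of replicate 4 with another replicate by -0.72 to -0.39. The correlations thus do not by themselves single out the pairs of replicates 1 and 2. Every gene of the list was accounted for. Levels in each sample were given for the 5, 5 and 3 recombination, Fanconi and checkpoint genes with the smallest adjusted p, and for the tested genes of the smaller classes; up to 6 of the other repair genes called lower were named. Sample levels of Brca2, Rad54b and Rad50, and further genes of that wider list, were added after their values were seen. A few other genes are not reported here by name. The 43 genes and the gene lists were chosen with earlier results of these data known, so that they are no independent support. Promoter sequences are from RefSeq (GRCm38.p6); probe positions are those of the array files (mm9), and whether a probe lies in coding or untranslated sequence was not analysed here.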

Additional observations from a re-analysis of the deposited data

Results flagged for a closer look

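A sample was looked at again when it lay far from the other 3 of its group by Dixon's criterion; it was met by 7 of the 85 groups of listed genes that were checked, and chance alone gives about 1 in 20. Among Sca-1- samples, Brca2 in replicate 1 was at 0.26 against -0.28 to -0.21 in the others. Sca-1- replicate 3 was low for Mre11a, at 1.22 against 1.68 to 1.76, and for Fancb, at -1.19 against -0.72 to -0.64. Replicate 4 was low in both groups for 3 genes, and only its Sca-1+ sample met the criterion. Brip1 was at -4.00 in Sca-1+ replicate 4 against -2.33 to -2.08 in the others, and at -2.03 in Sca-1- replicate 4 against -0.93 to -0.67. Xrcc2 was at -3.93 against -2.35 to -2.03 in Sca-1+ and at -3.25 against -1.99 to -1.34 in Sca-1- samples. Rad51c was at 6.27 against 7.21 to 7.36 in Sca-1+ and at 6.32 against 7.32 to 7.63 in Sca-1- samples. Fancf in Sca-1+ replicate 1 was at 0.0059 against 0.29 to 0.34. All levels are log2 relative to the array's 75th percentile.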

How the results depend on the processing

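None of the 23 alternatives turned the direction of a called gene, and in each of them 0 of the 43 genes were called higher and 0 end joining and mismatch genes were called. With slide as a block, the paired fit, all features called numbered 1234 against 339, the listed genes 17 against 11 and other repair genes 26 against 14; all 11 genes called unpaired kept their call, and Brip1, Chek2, Fancb, Fancd2, Topbp1 and Xrcc3 joined them. Array weights gave 1510 features, 19 listed genes, 15 of recombination and Fanconi and 28 others. Testing dim probes too gave 182, 7, 5 and 7, with 36161 features to adjust over. Normexp moved the recombination and Fanconi median from -0.995 to -0.34; the cause was not tested.

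Leaving out 1 array gave 163 to 463 features, 5 to 13 listed genes, 3 to 10 of recombination and Fanconi, 0 of end joining and mismatch repair and 7 to 15 others. The medians ranged from -1.07 to -0.79 and from -0.17 to -0.049. Other repair genes numbered 7, 8 and 9 without Sca-1- replicate 1, 2 and 3 and 7 without Sca-1+ replicate 3. Leaving out a replicate in both groups gave 1 to 882 features, 0 to 15 listed genes, 0 to 12 of recombination and Fanconi and 0 to 23 others, with medians from -1.06 to -0.77 and from -0.14 to -0.11. Rad51ap1, Rad54l, Exo1, Neil3 and Clspn kept their calls in all 8 single-array omissions. The signs of Rad50, Nbn, Rad51c, Atm, Atr, Fancg, Prkdc, Xrcc6 and Ung turned in at least 1 alternative.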
